A study of Mus musculus with 24 samples.

Results

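The colony-stimulating factors and their receptors were followed in 24 mouse hearts as 9 genes of a count table that lists 41388 Ensembl genes. The members were fixed by name: the ligand genes Csf1, Csf2, Csf3 and Il34, and the receptor genes Csf1r, Csf2ra, Csf2rb, Csf2rb2 and Csf3r. All 9 symbols matched 1 Ensembl identifier each. The hearts came from wild type male Balb/c mice (BALB/cAnNCrl), 8 to 10 weeks old at immunization, with experimental autoimmune myocarditis (EAM) or without it. EAM mice were injected on days 0 and 7 with a peptide of the cardiac alpha myosin heavy chain (100 µg) emulsified in SCFA, a complete Freund's adjuvant enriched in heat-killed mycobacteria, and received PTX (pertussis toxin) on day 0. Control mice received PBS in place of the peptide and shared the adjuvant, the toxin and the days of injection. RNA from a portion of each heart was sequenced on days 10, 15 and 21 (D10, D15 and D21), with 4 EAM and 4 control hearts a day. The EAM hearts are not a random draw, because the study preferred inflamed hearts when it selected tissue for RNA.

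Colony-stimulating factors are secreted proteins named for the blood cell colonies that they let grow from bone marrow. M-CSF (Csf1) and interleukin 34 (Il34) both bind the receptor tyrosine kinase CSF1R, on which monocytes and macrophages depend for survival. GM-CSF (Csf2) binds a receptor made of a specific alpha chain (Csf2ra) and the common beta chain (Csf2rb), which also serves interleukin 3 and interleukin 5, and signals through JAK2 and STAT5. Mice carry a duplicate of the beta chain gene, Csf2rb2, whose product pairs with the interleukin 3 receptor only. G-CSF (Csf3) acts through CSF3R, which is carried mainly by neutrophils and their precursors. GM-CSF is known from mouse genetics as a cytokine that T helper cells need to cause autoimmune heart inflammation.

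In the GRCm38 genome, with genes placed by the GENCODE M21 annotation, Csf1 (ENSMUSG00000014599) lies at chr3:107741048-107760469 on the minus strand. Csf2 (ENSMUSG00000018916, chr11:54247271-54249667, minus strand) and Csf3 (ENSMUSG00000038067, chr11:98701263-98703629, plus strand) are on the same chromosome, and Il34 (ENSMUSG00000031750) is at chr8:110741829-110805924 on the minus strand. Csf2ra (ENSMUSG00000059326) is at chr19:61223957-61228429 on the minus strand and Csf3r (ENSMUSG00000028859) at chr4:126024550-126044440 on the plus strand. The beta chain genes are neighbours that point away from each other, Csf2rb2 (ENSMUSG00000071714) at chr15:78282507-78305721 on the minus strand and Csf2rb (ENSMUSG00000071713) at chr15:78325752-78353847 on the plus strand.

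The 2 beta chain genes are near-identical copies, which bears on how far their counts can be told apart. Their coding sequences differ at 125 of 2628 aligned bases (95.24% identity). Of the 4690 stretches of 75 bases in the Csf2rb transcript, 75 being the read length, 518 (11.04%) also occur in Csf2rb2 transcripts, and a read wholly inside such a stretch cannot be placed in 1 of the genes by its own letters, though its mate may place it. The window of 90 coding bases in which the copies differ most is shown first and the one in which they differ least second, 5′ to 3′, with the differing bases in capitals. Coding bases are counted from 1 at the start codon.
Csf2rb, coding bases 308 to 397: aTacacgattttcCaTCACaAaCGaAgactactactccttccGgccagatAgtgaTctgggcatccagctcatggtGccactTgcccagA
Csf2rb2, coding bases 311 to 400: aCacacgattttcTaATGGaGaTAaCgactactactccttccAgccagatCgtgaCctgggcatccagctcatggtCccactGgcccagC
Csf2rb, coding bases 662 to 751: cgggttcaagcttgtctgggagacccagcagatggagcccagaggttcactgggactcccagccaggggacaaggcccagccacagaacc
Csf2rb2, coding bases 665 to 754: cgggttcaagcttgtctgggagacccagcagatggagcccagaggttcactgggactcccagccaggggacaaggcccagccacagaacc
The first pair differs at 16 of 90 bases and the second at 0. The study set aside reads that mapped to several loci and those that spanned several features, so such reads of either gene are missing from the counts. The sources used here do not give the strand setting of the counting. Csf1r shares 873 exon bases (15.1% of its exons) with Hmgxb3 on the opposite strand, and Hmgxb3 itself stayed between 28.5 and 37.5 CPM (counts scaled to a common library total) in all 24 hearts. Csf2 shares 96 exon bases with the antisense gene Gm12223, and Il34 shares 22 and 75 with the antisense genes Gm15894 and Gm15895.

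Total counts ran from 15814863 to 24980864 per library with a median of 19469782.5, and levels are given as CPM after TMM scaling over the 24 libraries. The samples are heart by their markers: all 6 cardiomyocyte markers were above 1 CPM in each group. Their summed level was 22789 to 29144 CPM in the control hearts, 15720 to 27918 in D10 EAM, 6529 to 16841 in D15 EAM and 11905 to 27648 in D21 EAM hearts. The sum of 14 monocyte and macrophage markers was 558 to 655 CPM in D15 control and 3486 to 4940 in D15 EAM hearts, and that of 9 neutrophil markers 17.4 to 86.1 and 543 to 1072 CPM. The 9 T cell markers summed to 3.18 to 5.23 and 65.7 to 90.7 CPM in the same hearts. Some libraries stood apart within their group. D10 EAM replicate 1 had 3134 CPM of the macrophage markers against 989 to 1685 in the other D10 EAM hearts. D15 EAM replicate 2 had 1072 CPM of the neutrophil markers against 543 to 587, and D15 EAM replicate 3 had 16841 CPM of the cardiomyocyte markers against 6529 to 10192. D21 EAM replicate 3 had 27648 CPM of the cardiomyocyte markers against 11905 to 19994 in the other D21 EAM hearts. It had 1298 CPM of the macrophage markers against 2280 to 4351, and 22.4 CPM of the T cell markers against 52.0 to 94.1. The 4 D21 EAM libraries carry another library code than the other 20, so at D21 the library code and EAM cannot be told apart. In these bulk samples a lower number of cells of a type and less RNA per cell cannot be told apart either.

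Per kilobase of exon, the scale on which genes can be compared, Csf1 and Csf1r were the most expressed members of the control hearts at all 3 time points. In D15 control hearts, Csf1 had a mean level of 18.04 CPM per kb and Csf1r 17.2, followed by Csf2ra at 3.54, Csf3r at 2.33, Il34 at 2.05, Csf2rb at 1.18 and Csf2rb2 at 1.12. Csf2 and Csf3 had almost no reads: 4 and 2 reads in all 12 control hearts together. In D15 EAM hearts the order was Csf1r (93.0 CPM per kb), Csf2rb (58.0), Csf3r (49.4), Csf2rb2 (37.1), Csf2ra (33.3) and Csf1 (27.1), so that all 5 receptor genes lay above the M-CSF gene, with Csf3 at 3.68, Csf2 at 2.68 and Il34 at 1.34 CPM per kb. In D21 EAM hearts Csf1r at 52.9 CPM per kb led, followed by Csf1 at 18.5, Csf3r at 17.2 and Csf2rb at 16.9. Parts of this order turn on the length used: per kb of the longest transcript, Csf2rb at 25.1 came before Csf1 at 23.4 in D21 EAM hearts, and Csf2ra at 42.0 before Csf2rb2 at 37.1 in D15 EAM hearts.

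Csf1, the gene of M-CSF, was expressed in every heart and was higher in EAM hearts at D15 by less than 2-fold. Its level was 84.5, 85.5, 113 and 98.1 CPM in D15 control replicates 1 to 4 and 135, 130, 149 and 158 CPM in D15 EAM replicates 1 to 4. All 4 EAM hearts lay above all 4 controls. The log2 fold change was 0.62 (standard error (SE) 0.11, adjusted p = 0.000576 by the quasi-likelihood test of edgeR, p-values being adjusted by Benjamini and Hochberg's method across every gene tested), which is a 1.54-fold difference and misses the 2-fold limit that the study set. At D10 Csf1 was at 128 ± 14.1 CPM in EAM and 119 ± 13.5 in control hearts (mean ± SD, n = 4 each), and at D21 at 97.7 ± 18.4 and 114 ± 15.2. Neither difference passed (log2 fold changes 0.09 and -0.19, edgeR adjusted p = 0.653 and 0.349). At D21, 3 of 4 EAM hearts were below all controls and replicate 4, at 125 CPM, was not.

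Il34, whose product is the other ligand of CSF1R and is best known from skin and brain, was low and did not pass the limits at any time point. D15 control replicates 1 to 4 had 4.74, 2.66, 3.575 and 5.07 CPM of Il34 and D15 EAM replicates 1.998, 2.91, 2.74 and 2.82 CPM. The groups overlapped, since control replicate 2 lay among the EAM hearts. The log2 fold change was -0.58 (SE 0.22, adjusted p = 0.0353 by edgeR's quasi-likelihood test). At D10 and D21 it was -0.13 and -0.18, edgeR's adjusted p being 0.784 and 0.514. Its mean was lower in EAM than in control hearts at all 3 time points, but at D10 the log2 fold change of Il34 turned to 0.066 without EAM replicate 1.

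Csf1r (ENSMUSG00000024621, chromosome 18), the receptor of both ligands and a gene of macrophages, rose 5.55-fold at D15. In D15 control replicates 1 to 4 its level was 94.1, 93.6, 111 and 98.9 CPM, and in D15 EAM replicates 583, 548, 423 and 594 CPM. The lowest EAM heart lay well above the highest control. The log2 fold change was 2.47 (SE 0.13, adjusted p = 2.61e-07 by edgeR's quasi-likelihood test). At D10 the EAM hearts had 290, 123, 171 and 144 CPM against 98.0 to 140 in the controls, and at D21 392, 234, 157 and 440 CPM against 105 to 136. The D21 groups did not overlap, yet Csf1r missed the FDR limit of 0.01 there (log2 fold change 1.39, SE 0.31, adjusted p = 0.0136 by edgeR).

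**Figure D1:**
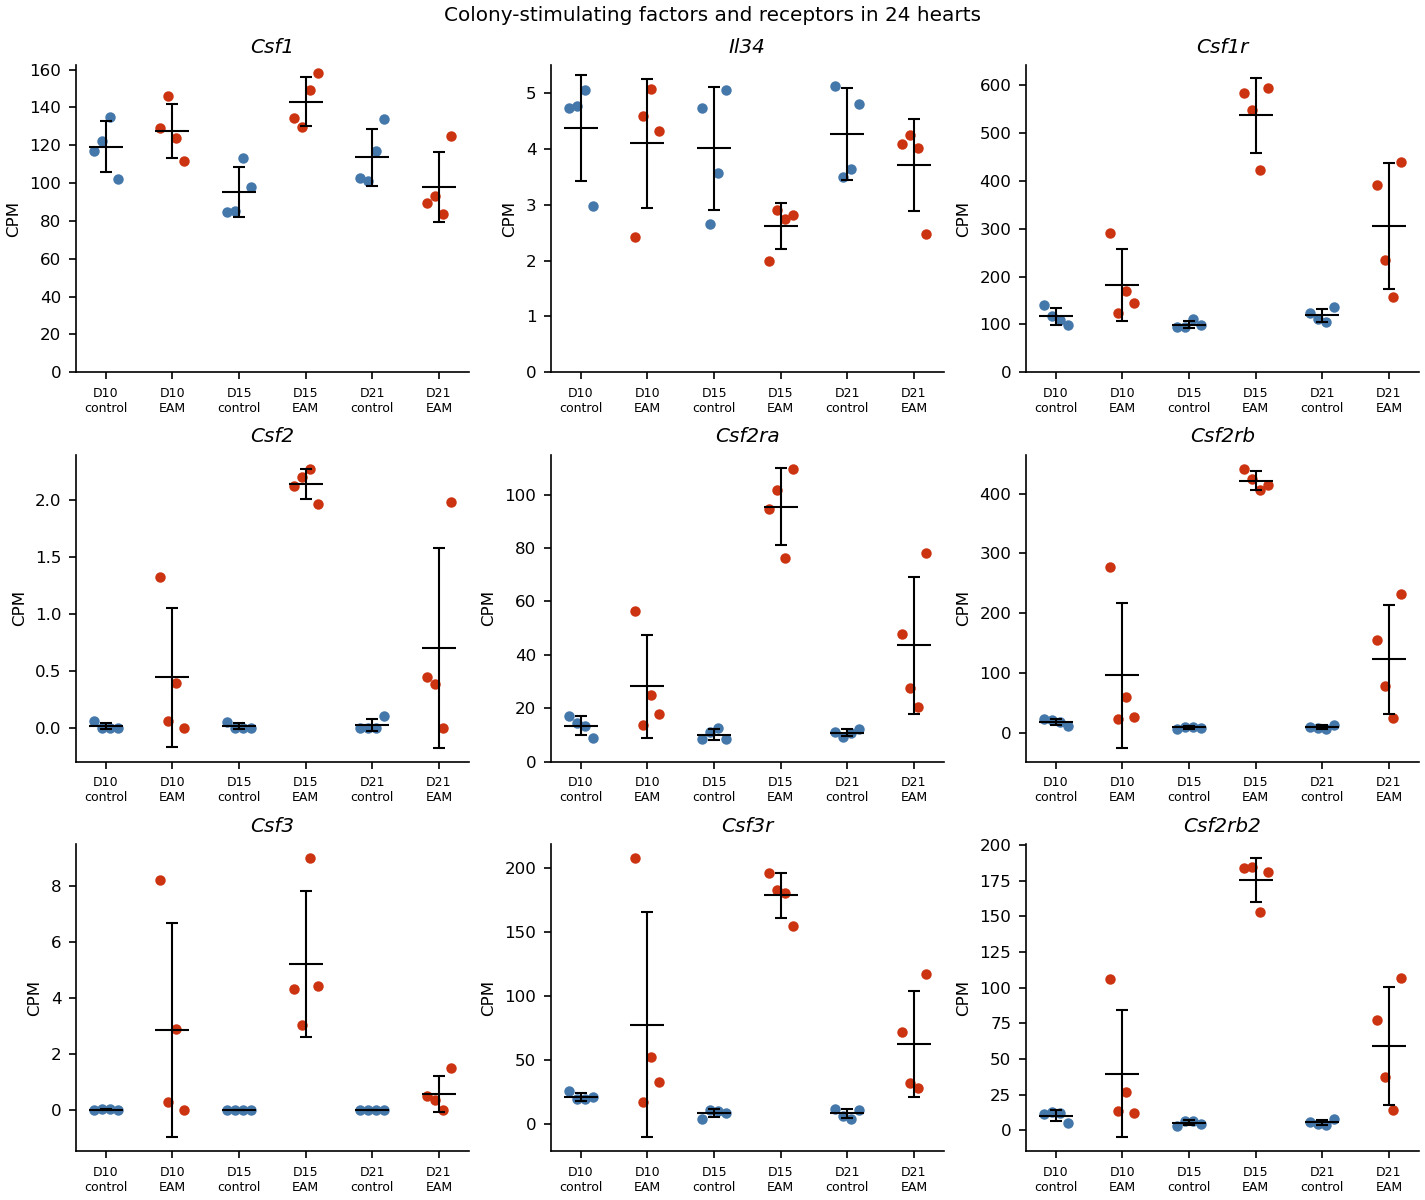
Level of each of the 9 genes in CPM after TMM scaling, with control hearts in blue and EAM hearts in red at D10, D15 and D21. Points are hearts, placed from left to right by replicate number, the long bar is the mean and the error bars are 1 SD (n = 4), each panel has its own axis, and the means of the receptor genes are highest in the D15 EAM hearts, where Csf2rb is between 406 and 442 CPM.

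Csf2, the gene of GM-CSF, was almost confined in its reads to EAM hearts and was detected evenly at D15. The D15 EAM libraries held 51, 63, 54 and 51 reads of Csf2 (2.12, 2.21, 2.28 and 1.97 CPM), while 1 of the 4 D15 control libraries held 1 read and the others 0. At D15 Csf2 passed both limits (adjusted p = 3.74e-07 by edgeR's quasi-likelihood test), and the ratio of the summed reads was 155-fold (95% exact interval 27.6 to 6158, counting error only). At D10 the EAM libraries held 30, 1, 7 and 0 reads, and at D21 9, 7, 0 and 36, so that 1 heart at each of these time points had none and at most 1 control heart of each had any. Csf2 had 10 or more reads in 1 library at D10 and in 1 at D21 and was not tested there in the fit of the day. A count of 0 allows up to 3 reads, which in these libraries is between 0.105 and 0.201 CPM.

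Csf2ra, the alpha chain that makes the receptor specific for GM-CSF, rose 9.64-fold at D15. It went from 8.44, 11.3, 12.5 and 8.48 CPM in the controls to 94.5, 102, 76.2 and 110 CPM in EAM replicates 1 to 4 (log2 fold change 3.27, SE 0.17, adjusted p = 2.79e-07 by edgeR). At D21 the EAM hearts had 47.9, 27.7, 20.4 and 78.0 CPM against 9.17 to 12.3 in the controls, and the difference passed (log2 fold change 2.05, SE 0.40, adjusted p = 0.00933 by edgeR). The hearts of both EAM groups lay above all controls of their day, by a much wider margin at D15.

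Csf2rb, the common beta chain, had the largest fold change of the receptor genes. Its level was 6.57, 10.2, 10.0 and 7.66 CPM in D15 control replicates 1 to 4 and 442, 425, 406 and 415 CPM in D15 EAM replicates, 50.4-fold higher (log2 fold change 5.66, SE 0.16, adjusted p = 1.3e-08 by edgeR). The 4 D15 EAM hearts agreed closely, the highest being 1.09 times the lowest. At D10 the EAM hearts had 277, 22.4, 59.2 and 26.2 CPM and the controls 10.4 to 22.5 CPM, and at D21 the EAM hearts had 156, 78.2, 24.5 and 233 CPM and the controls 6.13 to 12.9 CPM. The highest EAM heart was 12.3 times the lowest at D10 and 9.51 times at D21. The D21 difference passed (log2 fold change 3.77, SE 0.65, adjusted p = 0.00689 by edgeR), and the one at D10 did not (2.42, SE 0.79, adjusted p = 0.328).

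Csf2rb2, the duplicate beta chain, followed Csf2rb at a lower level. It was at 3.18, 6.38, 6.94 and 4.71 CPM in D15 controls and 184, 185, 153 and 181 CPM in D15 EAM hearts, a 34.0-fold rise (log2 fold change 5.09, SE 0.23, adjusted p = 1.26e-07 by edgeR). At D21 it was at 77.7, 37.7, 14.4 and 107 CPM in EAM and 4.16 to 8.14 CPM in control hearts (log2 fold change 3.42, SE 0.59, adjusted p = 0.00705 by edgeR). The same hearts were highest and lowest in the D21 EAM group for Csf2rb, Csf2rb2, Csf2ra, Csf1r and Csf3r: replicate 4 was the highest and replicate 3 the lowest of the 4 for each.

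Csf3, the gene of G-CSF, had nearly all of its reads in EAM hearts, as Csf2 did. The D15 EAM libraries held 104, 87, 213 and 115 reads (4.33, 3.05, 8.99 and 4.44 CPM) and the 4 D15 control libraries 0, which makes Csf3 at least 123-fold higher with 3 reads allowed to the summed control libraries. It passed both limits (adjusted p = 0.000167 by edgeR's quasi-likelihood test). At D10 the EAM hearts held 186, 5, 52 and 0 reads against 2 reads in the 4 controls together, a ratio of 110 (95% exact interval 30.2 to 915, counting error only). At D21 they held 10, 7, 0 and 27 reads against 0, at least 16.9-fold, or at least 8.76-fold without replicate 4. Like Csf2, Csf3 had too few libraries with 10 reads for the fits of D10 and D21, and its D10 ratio was 36.6 without replicate 1.

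Of the reads of Csf2 and Csf3 together, those of Csf3 were 86.1% (95% Wilson interval 80.9 to 90.1) of 216 reads in D10 EAM replicate 1, 83.3% (43.6 to 97.0) of 6 in replicate 2 and 88.1% (77.5 to 94.1) of 59 in replicate 3, and replicate 4 had no reads of either. The D15 EAM hearts had 67.1% (59.4 to 74.002) of 155 reads, 58.0% (50.0 to 65.6) of 150, 79.8% (74.6 to 84.2) of 267 and 69.3% (61.9 to 75.8) of 166. In the D21 EAM hearts with reads the share was 52.6% (31.7 to 72.7) of 19, 50.0% (26.8 to 73.2) of 14 and 42.9% (31.4 to 55.1) of 63. Csf3 has the longer exons, and per kb the levels of Csf3 and Csf2 in the D15 EAM hearts were 3.06 and 2.65, 2.16 and 2.76, 6.36 and 2.85, and 3.14 and 2.46 CPM per kb, so that Csf2 was the higher in replicate 2. The shares themselves did not overlap between the D15 and D21 hearts, but some of their Wilson intervals did, such as 50.0 to 65.6 at D15 and 31.7 to 72.7 at D21. The D21 libraries are also those of the other library code, and no test was made.

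Csf3r, the G-CSF receptor and a gene of neutrophils, rose 21.8-fold at D15. Its level was 4.12, 10.9, 10.4 and 8.31 CPM in D15 controls and 196, 182, 180 and 154 CPM in D15 EAM hearts (log2 fold change 4.44, SE 0.27, adjusted p = 8.79e-07 by edgeR). At D21 the EAM hearts had 71.8, 32.2, 28.1 and 117 CPM and the controls 3.98 to 11.8 CPM (log2 fold change 2.96, SE 0.55, adjusted p = 0.00827 by edgeR). At D10 EAM replicate 1, at 207 CPM, exceeded every D15 EAM heart, while replicates 2, 3 and 4 were at 17.3, 51.9 and 33.1 CPM and replicate 2 lay below all controls. The neutrophil markers of replicate 1 summed to 774 CPM against 187 to 341 in the other D10 EAM hearts, and their part in its level of Csf3r was not tested. D10 control hearts had 19.2 to 25.8 CPM of Csf3r, more than any D15 or D21 control heart.

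Read together at D10, 0 of the 7 members tested passed the limits of an FDR of 0.01 and a 2-fold change by edgeR's quasi-likelihood test, as by DESeq2, limma-voom and edgeR's likelihood ratio test. All 5 receptor genes were higher in EAM hearts at an unadjusted p under 0.05 (edgeR p between 0.014 and 0.0349, adjusted p = 0.328 for each), against a background of 9.49% of 15029 genes that were higher at that limit. That count was 1 member by limma-voom, 2 without EAM replicate 1, 2 without control replicate 2 or 3 and 1 without control replicate 4. By the quasi-likelihood test no gene of the table passed both limits (0%), while DESeq2 had 48 genes higher and the likelihood ratio test 45. For 0 of 9 members were all 4 EAM hearts above all 4 controls, where 4.41% of all genes showed this. The receptor values turned on D10 EAM replicate 1. Without it the log2 fold change fell from 2.42 to 0.99 for Csf2rb, from 1.93 to 0.75 for Csf2rb2, from 1.86 to 0.67 for Csf3r, from 1.05 to 0.47 for Csf2ra and from 0.63 to 0.31 for Csf1r. That heart also had the highest Ptprc, the gene of the leucocyte antigen CD45, at 194 CPM against 27.7 to 56.7 in the other D10 EAM hearts.

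At D15, 7 of 9 members passed both limits and were higher in EAM hearts, against 18.1% of 15693 genes. They were Csf2, Csf3 and the 5 receptor genes. Csf2 and Csf3, with 1 and 0 reads in the D15 controls together, passed the read filter only through the EAM hearts. Their direction was fixed by the filter, also where they enter the median and the overlap count below. No member was lower by these limits, against 12.9% of all genes (31% passed in either direction). Il34 was the only member with a lower mean. The median log2 fold change of the 9 members was 4.44, also with Csf3 at its lower bound, and that of all genes tested was 0.02. All 4 EAM hearts lay above all controls for 8 of 9 members and for 34.6% of all genes. At an unadjusted p under 0.05, 39.1% of all genes were higher. Leaving out any 1 of the 8 libraries left the number at 7.

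At D21, 4 of the 7 members tested passed (Csf2ra, Csf2rb, Csf2rb2 and Csf3r), against 4.3% of 15266 genes that were higher, 1.3% that were lower and 5.61% in either direction. At an unadjusted p under 0.05 by edgeR all 5 receptor genes were higher, as were 25.4% of genes. The EAM hearts lay above all controls for the 5 receptor genes, against 17.8% of genes. The median log2 fold change of the 7 was 2.05 and that of all genes -0.01. The calls at D21 sat close to the limit. Without any 1 of the 4 D21 controls, or without EAM replicate 1 or 2, 0 members passed, and the number of all genes that were higher fell from 657 to between 0 and 51. Without EAM replicate 4 there were 3 members and 389 genes, and without replicate 3 there were 5 members and 1709 genes, while the log2 fold changes of the 5 receptor genes stayed between 1.16 and 4.08 in all 8 of these fits. With limma-voom 0 members and 80 genes were higher, with adjusted p between 0.0163 and 0.0227 for the 4 members, and with DESeq2 5 members and 1364 genes. In D21 EAM and control hearts the monocyte and macrophage markers summed to 1298 to 4351 and 497 to 790 CPM, the neutrophil markers to 104 to 400 and 11.1 to 112 CPM and the T cell markers to 22.4 to 94.1 and 5.19 to 6.40 CPM. Their part in these results was not tested.

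**Figure D2:**
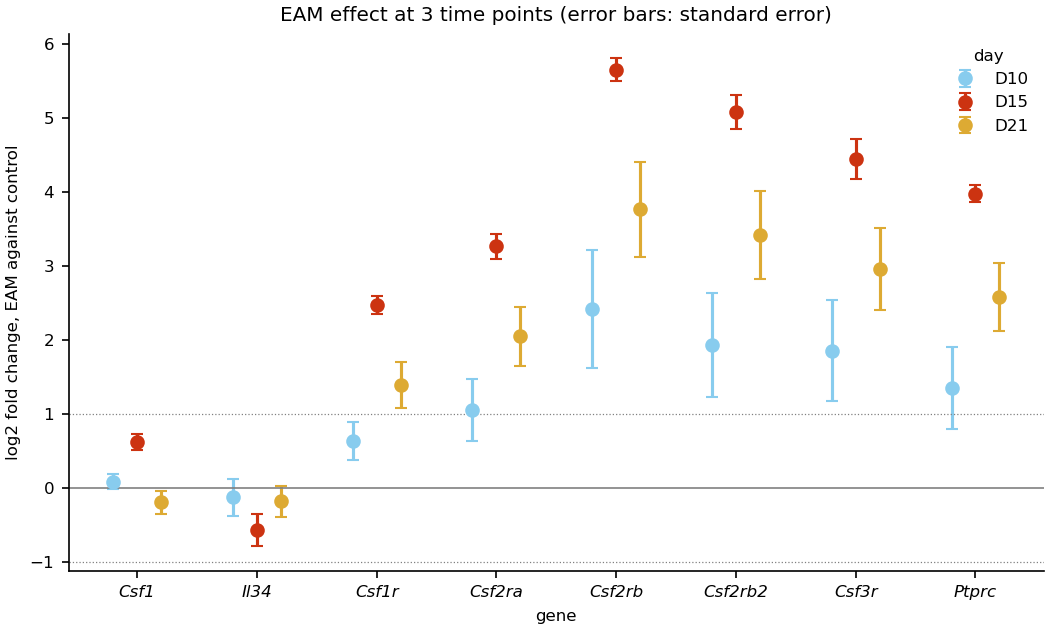
Log2 fold change of EAM against control hearts at D10, D15 and D21 for the 7 members tested at every time point and for Ptprc, from edgeR, with error bars of 1 standard error (4 hearts a group) and dotted lines at a 2-fold change. Csf2rb is the highest of the plotted genes at each time point, at 2.42, 5.66 and 3.77, and Csf1 and Il34 stay inside the dotted lines.

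Whether the EAM effect itself differed between time points was tested as a difference of 2 effects in a fit of all 24 libraries. From D10 to D15 the effect grew for Csf1r by 1.79 (SE 0.36, adjusted p = 0.00195), for Csf2ra by 2.17 (SE 0.53, adjusted p = 0.00391), for Csf2rb by 3.19 (SE 0.90, adjusted p = 0.00816) and for Csf2rb2 by 3.11 (SE 0.83, adjusted p = 0.00612), all on the log2 scale and by edgeR's quasi-likelihood test. These 4 of 9 members compare with 5.3% of 16318 genes higher, 7.56% lower and 12.9% in either direction, or 865 higher against 1234 lower, a split that became 996 and 859 with total counts in place of TMM. Csf3r missed the limit (2.54, SE 0.80, adjusted p = 0.0151 by edgeR), and so did Csf1 (0.49, adjusted p = 0.034) and Il34 (-0.50, adjusted p = 0.229). Csf2 and Csf3, nearly without control reads, were tested in this fit and missed it too (adjusted p = 0.689 and 0.617 by edgeR). The calls for Csf1r and Csf2ra held when any 1 of the 16 libraries was left out. Only 2 members were called without D10 control replicate 1, 2 or 3, D10 EAM replicate 2, 3 or 4, D15 control replicate 1, 2 or 4 or D15 EAM replicate 1, 2 or 4, where 468 to 655 of all genes were higher instead of 865. Without D10 EAM replicate 1 there were 5, Csf3r included, and 2045 of all genes, and the difference for Csf2rb was 4.66. Ptprc, at 2.58 (adjusted p = 0.00433 by edgeR), rose between the same time points.

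From D15 to D21 the fitted effects were smaller for each of the 5 receptor genes, and 0 members passed both limits by edgeR's quasi-likelihood test, by DESeq2 or by limma-voom. At an unadjusted p under 0.05 by edgeR there were 4 of 9 members and 6689 of 16318 genes, a share close to that of the members. At the stricter limits the background was 0.968% of 16318 genes lower and 2.84% higher, 3.81% in all, or 158 and 464 genes, a split that became 245 and 247 with total counts. Csf1 had an adjusted p under the FDR limit, with a fall by 0.80 on the log2 scale that is below 2-fold (SE 0.18, adjusted p = 0.00403 by edgeR). For the receptors the differences were -1.07 for Csf1r, -1.21 for Csf2ra, -1.89 for Csf2rb, -1.66 for Csf2rb2 and -1.48 for Csf3r, with adjusted p between 0.0324 and 0.174 by edgeR. Csf2 and Csf3 missed the limit as well (adjusted p = 0.624 and 1 by edgeR). Without D21 EAM replicate 4 the difference for Csf1r was -1.30 and passed (adjusted p = 0.00712 by edgeR). All of these differences also compare libraries of 2 codes.

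In control hearts, which had adjuvant and toxin but no peptide, 0 members differed between time points by edgeR, DESeq2 or limma-voom, against 0.0797% of genes for D15 against D10 (0.00613% higher, 0.0735% lower), 0.27% for D21 against D10 (0.153% higher, 0.116% lower) and 0% for D21 against D15. At an unadjusted p under 0.05 by edgeR there were 2, 1 and 0 of 9 members, and 1109, 2029 and 415 of 16318 genes. The members were Csf1 (log2 fold change -0.32, SE 0.13) and Csf3r (-1.34, SE 0.59) for D15 against D10, and Csf3r (-1.38, SE 0.59) for D21 against D10. The levels of Csf3r in the D10 control hearts did not overlap with those of the other control hearts. The neutrophil markers summed to 128 to 264 CPM in D10 control hearts, 17.4 to 86.1 in D15 and 11.1 to 112 in D21 control hearts, and the part of these markers in the level of Csf3r was not tested.

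Ratios of 2 members within a heart need no scaling between libraries, and show how the balance of 2 genes differed between EAM and control hearts. They were not corrected for exon length, so they do not give the proportion of the 2 genes itself. They were taken as log2 of the ratio of counts with 0.5 reads added to each, and EAM and control hearts were compared by an exact two-sided permutation test, which with 4 against 4 hearts cannot give a p under 0.0286. The 12 ratios tested were adjusted together. Csf2rb rose more than Csf2ra: the mean log2 ratio of Csf2rb to Csf2ra was 1.20 ± 0.79 in EAM and 0.38 ± 0.12 in control hearts at D10, 2.16 ± 0.21 and -0.24 ± 0.11 at D15 and 1.26 ± 0.67 and -0.26 ± 0.36 at D21 (SD, n = 4, exact permutation p = 0.0286 and adjusted p = 0.0490 at each). All 4 EAM hearts were above all 4 controls at each time point, D10 included. At D10 the lowest EAM heart, at 0.55, was just above the highest control, at 0.51. D10 EAM replicate 1 had the highest ratio, at 2.29, against 0.55 to 1.25 in the other D10 EAM hearts. The D10 difference of 0.82 ran from 0.45 to 1.03 when 1 library was left out, with an exact permutation p of 0.0286 to 0.171.

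The ratio of Csf1 to Il34, the 2 ligands of CSF1R, was shifted towards Csf1 at D15. It was 5.77 ± 0.24 in EAM and 4.60 ± 0.45 in control hearts at D15 on the log2 scale (SD, n = 4, exact permutation p = 0.0286, adjusted p = 0.0490). The exact permutation p was 0.657 at D10 and 1 at D21, and the difference between days was not tested for this ratio. Csf3r rose more than Csf1r. Their log2 ratio was -1.58 ± 0.29 against -3.65 ± 0.60 at D15 and -2.43 ± 0.39 against -3.98 ± 0.59 at D21 (SD, n = 4, exact permutation p = 0.0286, adjusted p = 0.0490 at both), and at D10 the exact permutation p was 0.257. Csf2rb2 rose a little less than Csf2rb at D15, with a log2 ratio of -1.27 ± 0.10 in EAM and -0.73 ± 0.22 in control hearts (SD, n = 4, exact permutation p = 0.0286, adjusted p = 0.0490). At D10 and D21 the exact permutation p of that ratio was 0.171 and 0.0571.

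**Figure D3:**
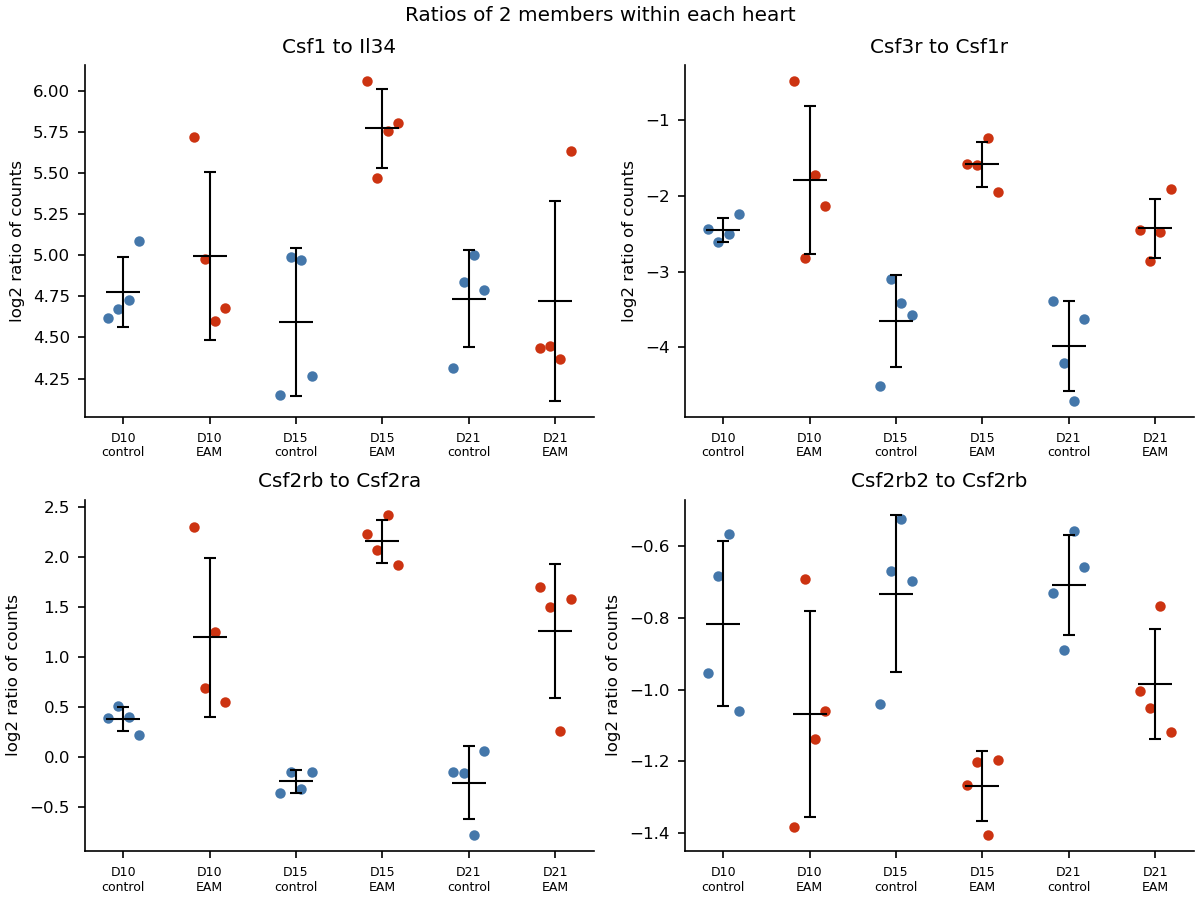
Log2 ratio of the counts of 2 members within each heart for 4 pairs, with control hearts in blue, EAM hearts in red, the mean as a long bar and error bars of 1 SD (n = 4). For Csf2rb to Csf2ra the EAM hearts lie above the controls of the same day at all 3 time points, with D15 means of 2.16 and -0.24.

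Because Ptprc is expressed by leucocytes in general, each member was also set against it within a heart, by the same exact permutation test and with 21 ratios adjusted together. The smallest adjusted p reached was 0.05, so that no ratio to Ptprc fell under 0.05, and the values are given as levels and their overlap. All 4 EAM hearts lay above all 4 controls for Csf2rb relative to Ptprc at all 3 time points (log2 differences 0.74, 1.70 and 0.96, exact permutation p = 0.0286, adjusted p = 0.05 each), and for Csf2rb2 at D15 and D21 (1.16 and 0.69, exact permutation p = 0.0286 each). All 4 EAM hearts lay below all 4 controls for Csf1r at D15 and D21 (-1.51 and -1.13, exact permutation p = 0.0286 each), and for Csf2ra at D15 (-0.70, exact permutation p = 0.0286). For Csf3r the differences from Ptprc were 0.28, 0.55 and 0.43 at D10, D15 and D21, with overlapping hearts (exact permutation p = 0.257, 0.2 and 0.114). For Csf1 and Il34 all EAM hearts also lay below the controls at D15 (-3.35 and -4.52) and D21 (-2.61 and -2.59, exact permutation p = 0.0286 each). Ptprc itself was higher in EAM hearts, by 3.98 at D15 and 2.58 at D21 on the log2 scale. A gene that rises less than Ptprc therefore falls in this ratio. At D15 Csf1r and Csf1 themselves were 5.55-fold and 1.54-fold higher. The share of all genes that separate in this way was not taken.

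**Figure D4:**
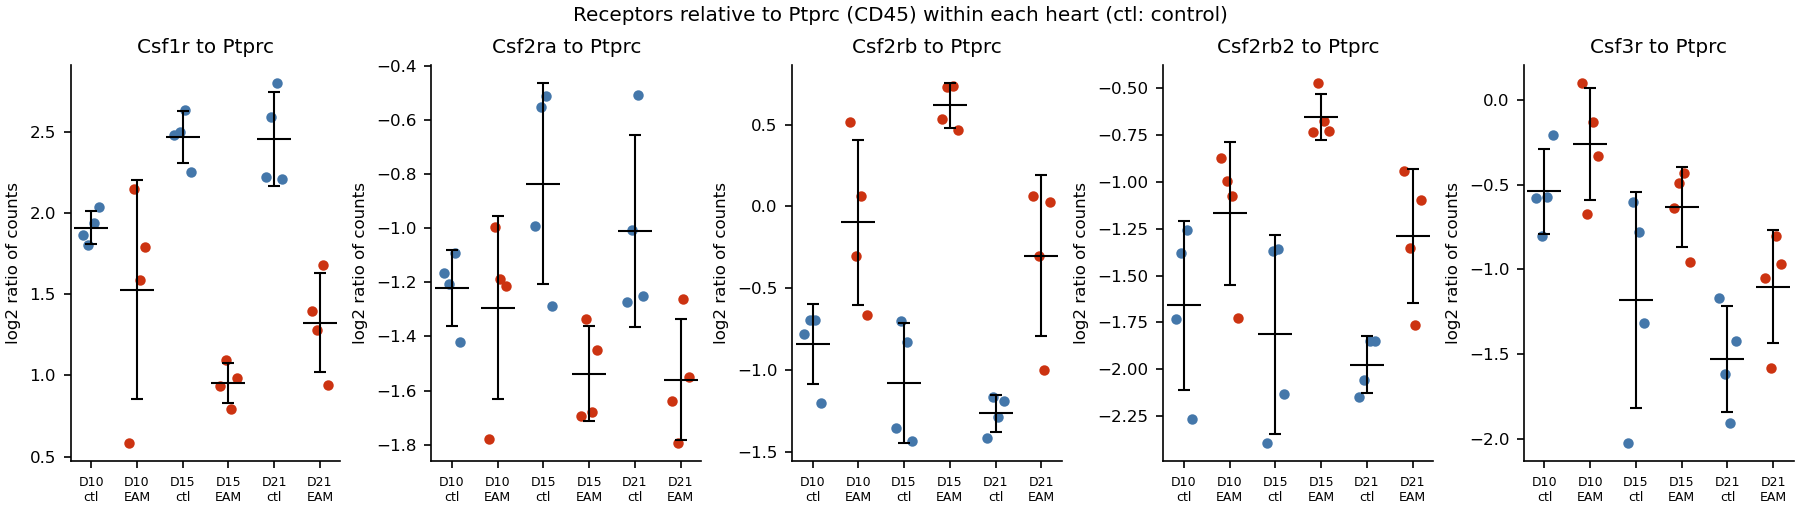
Log2 ratio of the counts of each receptor gene to those of Ptprc within each heart, with control hearts (ctl) in blue, EAM hearts in red, the mean as a long bar, error bars of 1 SD (n = 4) and an axis of its own for each panel. In D15 EAM hearts Csf2rb to Ptprc is at 0.62 against -1.08 in controls, and Csf1r to Ptprc at 0.95 against 2.47.

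The genes around the receptors were described from lists of known partners, with no test of a list. Of 4 receptor and ligand partners tested, 3 were higher and 1 was lower at D15, where 18.1% of all genes were higher and 12.9% lower. At D21 1 was higher and 1 lower, against 4.3 and 1.3% of all genes. Il3ra, the alpha chain of the interleukin 3 receptor that shares the beta chains, rose at D15 (log2 fold change 1.72, SE 0.25, adjusted p = 0.000194 by edgeR) and D21 (1.48, SE 0.27, adjusted p = 0.00777), Sdc1, a heparan sulfate proteoglycan that binds interleukin 34, rose at D15 (3.36, SE 0.27, adjusted p = 4.5e-06), and Adam17, a sheddase of cell surface proteins including CSF1R, was the third. Ptprz1, a phosphatase that also binds interleukin 34, fell by 1.52 on the log2 scale at D15 (SE 0.39, adjusted p = 0.0058 by edgeR) and had a log2 fold change of -1.73 at D21 (SE 0.34, adjusted p = 0.00973).

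Of 24 genes that act directly below these receptors, 13 were higher at D15 and 8 at D21, and 0 at D10, where 18.1, 4.3 and 0% of all genes were higher. The Src-family kinase Fgr and the exchange factor Vav1 were among those with the largest changes at D15, with log2 fold changes of 5.70 and 4.03 (SE 0.21 and 0.11, adjusted p = 4.24e-08 and 1.3e-08 by edgeR). Jak2, the kinase bound to the beta chain, was among the 13, whereas Stat5a and Stat5b were not. The list median was 1.22 at D15, that of all genes 0.02. Negative regulators, which end receptor signals, rose as well: 8 of 11 at D15 and 3 of 11 at D21, against the same 18.1 and 4.3% of all genes. They were led at D15 by Socs1 (log2 fold change 4.86, SE 0.24), Socs3 (4.73, SE 0.12), the feedback inhibitor that binds the G-CSF receptor, and the phosphatase Ptpn6 (3.90, SE 0.08), each with an adjusted p of 2.56e-07 or less by edgeR.

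Of 13 transcription factors of myeloid cells 12 rose at D15, the exception being Klf4, and 4 of 11 tested rose at D21, against 18.1 and 4.3% of all genes. Largest at D15 were Cebpe and Gfi1, factors of neutrophil maturation, and Egr2. Cebpe had 147 reads in the 4 EAM hearts and 2 in the 4 controls. Gfi1 had 5 reads in the controls, so both genes passed the read filter only through the EAM hearts. The log2 fold changes of Gfi1 and Egr2 were 4.70 (SE 0.32) and 4.69 (SE 0.14), with adjusted p = 3.98e-07 and 1.69e-08 by edgeR. Of 7 listed cytokines that are known to induce colony-stimulating factors, 5 were tested at D15 and all 5 rose, as did 18.1% of all genes. Il17a, Ifng and Il1a had 0, 2 and 6 reads in the 4 D15 controls together. They passed the read filter only through the EAM hearts, so their direction was fixed by it. At D10 0 of 3 tested rose and at D21 1 of 3 (Il1b), against 0 and 4.3% of all genes. Il1a went from 0.0849 ± 0.0613 to 22.6 ± 3.66 CPM (SD, n = 4 each), Ifng from 0.0277 ± 0.0321 to 4.61 ± 1.70 and Il17a from 0 reads to 1.07 ± 0.333 CPM. Of the genes known to respond to GM-CSF, 3 of 5 rose at D15 against the same 18.1%, namely the chemokine genes Ccl17 (11.5 ± 1.77 CPM) and Ccl22 (19.9 ± 3.79 CPM) and the integrin gene Itgax (114 ± 38.8 CPM in EAM against 1.54 ± 0.754 CPM in control hearts), and Cish and Pparg did not.

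Genes with the most similar pattern were sought among the 14217 genes whose mean reached 1 CPM, as those with the smallest root mean square difference from the member over the 24 hearts, after log2(CPM + 1) of each gene was centred on its own mean. The 24 points share libraries and the EAM contrast, so this is a description. For Csf3r, Mmp9 (0.309) and Cxcr2 (0.349), which encode a neutrophil protease and a chemokine receptor, were among the 3 nearest. For Csf2rb they were Fpr2 (0.275), Il1b (0.275) and Csf2rb2 (0.283), and for Csf2rb2 the integrin genes Itgam (0.247) and Itgb2 (0.270) and Gm49339 (0.272). Csf1r was nearest to Cndp2 (0.139), Prkcb (0.140) and Prex1 (0.145) and Csf2ra to Sh3bp2 (0.183), Unc13d (0.186) and Kcnab2 (0.189). None of the other members was among the 3 nearest genes of a member except Csf2rb2 for Csf2rb.

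Of the ligands, Csf2 had a mean under 1 CPM and was not compared, and the nearest genes of the other 3 were not those of the receptors. Csf3 was nearest to Ifng (0.350), the interferon gene, and to the interferon-induced Irf1 (0.362) and Serpina3f (0.388), while its distance from Csf3r was 0.924. Csf1 was nearest to Taf5 (0.155), Alkbh1 (0.157) and Pdgfra (0.158), the last of them a fibroblast marker. Il34 was nearest to Cracr2b (0.176), Esam (0.187), an adhesion molecule of endothelium, and Plpp1 (0.192). The own spread of Csf1 and Il34 over the hearts was small, 0.262 and 0.311 on the same scale, against 2.11 for Csf2rb. The summed level of 5 endothelial markers was 970 to 1270 CPM in D15 control and 699 to 808 CPM in D15 EAM hearts, and its part in the level of Il34 was not tested. That of 5 fibroblast markers was 1258 to 1462 CPM in D15 control and 3139 to 6453 CPM in D15 EAM hearts. Col1a1 was the only 1 of these 5 called higher, against 18.1% of all genes. The part of the fibroblast markers in the level of Csf1 was not tested.

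The 250 bases before the gene start of RefSeq were read for the 5 members Csf1, Csf2, Csf2ra, Csf2rb2 and Csf3r from its promoter table of GRCm38.p6 and searched on both strands for 5 short motifs. They were GAGGAAGT of PU.1-type factors, TGANTCA of AP-1, TTNNGNAA of C/EBP, TTCNNNGAA of STAT and for NF-kappaB the letters GGGA, any base, TT, any base and CC, which occur in 2.44, 6.75, 36.8, 7.02 and 0.98% of 32851 such windows. The windows of 3 receptors that rose together at D15 and of Csf1, which changed by less than 2-fold, are shown 5′ to 3′ on the strand of the gene, with a match in capitals. RefSeq's start differs from that of GENCODE for some: the windows of Csf3r and Csf2ra reach into the gene as GENCODE places it, and that of Csf2, searched but not shown, lies some way before it.
Csf2rb2, chr15:78305722-78305971, minus strand: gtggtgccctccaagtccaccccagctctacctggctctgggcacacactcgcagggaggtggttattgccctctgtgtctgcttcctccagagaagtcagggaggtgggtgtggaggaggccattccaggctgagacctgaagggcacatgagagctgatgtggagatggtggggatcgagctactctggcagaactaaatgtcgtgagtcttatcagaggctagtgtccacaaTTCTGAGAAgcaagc
Csf2ra, chr19:61228419-61228668, minus strand: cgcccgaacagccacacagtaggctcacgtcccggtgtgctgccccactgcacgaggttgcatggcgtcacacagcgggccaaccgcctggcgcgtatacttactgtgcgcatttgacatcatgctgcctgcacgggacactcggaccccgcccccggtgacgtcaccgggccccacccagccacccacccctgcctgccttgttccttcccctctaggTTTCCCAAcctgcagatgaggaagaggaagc
Csf3r, chr4:126024409-126024658, plus strand: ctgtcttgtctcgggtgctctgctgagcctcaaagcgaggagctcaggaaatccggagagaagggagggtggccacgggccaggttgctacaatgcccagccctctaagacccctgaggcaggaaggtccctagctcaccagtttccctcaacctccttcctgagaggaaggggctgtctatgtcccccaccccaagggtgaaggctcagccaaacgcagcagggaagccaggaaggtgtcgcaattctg
Csf1, chr3:107760470-107760719, minus strand: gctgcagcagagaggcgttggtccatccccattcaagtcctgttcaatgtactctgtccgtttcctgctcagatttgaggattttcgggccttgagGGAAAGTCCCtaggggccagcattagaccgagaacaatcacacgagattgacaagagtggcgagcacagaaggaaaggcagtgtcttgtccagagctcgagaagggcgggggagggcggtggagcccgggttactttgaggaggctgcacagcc
The window of Csf2rb2 holds a STAT match (TTCTGAGAA) at 15 to 7 bases before the start and that of Csf2ra a C/EBP match on the opposite strand (TTTCCCAA as printed) at 31 to 24 bases. That of Csf1 holds an NF-kappaB match on the opposite strand (GGAAAGTCCC) at 154 to 145 bases before the start. The Csf2 window holds a C/EBP match on the opposite strand (TTGCCCAA as read) at positions -145 to -138 from the start. The window of Csf3r holds none of the 5. A match is a description of the letters and not a site shown to be bound.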

How the data were processed

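The deposited values are counts of reads per Ensembl gene. By the study's methods, the authors sequenced strand-specific libraries as 75 bp pairs, aligned them with HISAT2 2.0.4 to GRCm38, removed duplicates with Picard and assigned reads to genes with featureCounts. Reads that mapped to several loci or spanned several features were set aside by the authors. The sources used here do not give the strand setting. The count table lists 41480 features, of which 92 are spike-in rows with 0 reads that were left out of totals and tests.

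Counts were used as deposited, with groups from the sample labels. Genes with at least 10 reads in as many libraries as the smallest group holds were tested with edgeR 4.0.16 (R 4.3.3), with TMM scaling and the quasi-likelihood test. Each day was fitted on its 8 libraries, and differences between effects and control contrasts on all 24. A gene was called at an FDR under 0.01 and a change of at least 2-fold. DESeq2 1.42.0, limma-voom (limma 3.58.1), other scalings, filters, control sets and leaving out each library were alternatives. Levels between genes used union exon lengths of GENCODE M21. Exact permutation tests ran over all arrangements of the hearts. The exact intervals of summed reads used scipy 1.17.1, and Wilson intervals cover counting error only. The scripts were tested on simulated data.

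The members and gene lists were chosen with earlier results of these data known. Named were all members, and in each pathway list the genes with the largest changes at D15, and others of the lists were named after their values were seen. Some genes that this rule names are not reported here. No 2 libraries of the same group agreed within sampling noise. The replicate numbers were not taken as pairs. With 4 hearts a group, the p-values weigh the difference between groups against the spread between these mice. At D21 that difference includes the library code.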

Additional observations from a re-analysis of the deposited data

Results flagged for a closer look

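In 8 of 52 groups of 4 hearts, a single heart stood apart from the other 3 by Dixon's criterion, which chance meets in about 1 of 20 groups. In 3 of them this is 1 or 2 reads of Csf2 in a control heart, at 0.0571 CPM (D10 replicate 1), 0.0521 CPM (D15 replicate 1) and 0.102 CPM (D21 replicate 4), where the other controls held none. For Il34, D10 control replicate 4 was lowest at 2.98 CPM and D21 EAM replicate 4 at 2.48 CPM. D10 EAM replicate 1 was highest for Csf2rb at 277 CPM and for Csf2rb2 at 106 CPM, and the same heart had the highest Ptprc and macrophage markers of its group, whose part in these levels was not tested. D15 EAM replicate 3 was lowest for Csf2rb2 at 153 CPM.

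The EAM effect differed between D10 and D15 by edgeR's test of the difference for Csf1r (1.79), Csf2ra (2.17), Csf2rb (3.19), Csf2rb2 (3.11) and Ptprc (2.58), on the log2 scale. Between D15 and D21 it differed for Csf1 (-0.80), by less than 2-fold, and the D21 EAM libraries carry another library code.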

How the results depend on the processing

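The number of members called was 7 at D15 under every alternative with the same limits on FDR and fold. At D10 it was 0 with the 4 controls of the day and 4 with all 12 control hearts. At D21 it was 4, and 0 with limma-voom, 5 with DESeq2, the likelihood ratio test or all 12 controls, and 6 of 9 tested with all 24 libraries in 1 fit. With the longest transcript as the length, 18 group levels per kb moved by more than the spread between hearts and 24 did not. Leaving out 1 library gave 0 to 0 members at D10, 7 to 7 at D15, 0 to 5 at D21, 2 to 5 for the difference of D15 and D10, and 0 to 1 for that of D21 and D15. The log2 fold change of Il34 at D10 ranged from -0.26 to 0.066 and turned positive without EAM replicate 1. The cause was not tested.

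Csf1r at D21 was called by DESeq2 (adjusted p = 0.000134) and Csf3r in the difference of D15 and D10 by DESeq2 (0.00356) and limma-voom (0.00851), while Csf2rb lost that call with no filter on low counts (0.0111). Over all genes, 657 were higher at D21, against 1364 with DESeq2, 1356 with the likelihood ratio test, 80 with limma-voom, 1588 with 12 controls and 1567 with all 24 libraries in 1 fit, and 0 at D10 against 48 with DESeq2 and 636 with 12 controls. With the replicate block, 0, 7 and 4 members were called at D10, D15 and D21, and 5 for the difference of D15 and D10, where 1, 2780, 645 and 1045 of all genes were higher. On no day did every same-numbered pair of hearts correlate above 0.1, so the numbers were not read as pairs. Total counts moved the median of all genes at D15 from 0.02 to 0.17 and changed no member call. The folds of summed reads without 1 EAM heart were added after seeing the data. Depth limits Csf2 and Csf3, which passed the filter of the daily fits at D15 alone, and there only through the EAM libraries. With no filter neither was called at D10 or D21, and with all 24 libraries in 1 fit Csf2 was called at D21 (edgeR adjusted p = 0.004).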
